A study of Mus musculus with 6 samples.

Results

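The epidermal growth factor (EGF) family and its ErbB receptors were followed in mouse colon organoids with and without tumour necrosis factor alpha (TNF). The set comprised 10 genes chosen by exact symbol in the deposited table of 29940 genes, each with 1 row: the ligand genes Areg, Ereg, Hbegf, Tgfa, Btc and Epgn, the receptor genes Egfr, Erbb2 and Erbb3, and Lrig3, a gene of the LRIG family of receptor-associated membrane proteins. Large-intestine crypts of the inbred mouse strain C57BL/6J were grown in Matrigel for 2 days. They were then kept for 24 hours without an addition (Ctrl, 3 samples) or with TNF, a cytokine of inflammation (TNF, 3 samples), and their RNA was sequenced. No transgene or deletion is named for either group. The dose of TNF, the age and number of the mice and the makeup of the culture medium, including whether it held EGF, are named by no source used here. Whether the 3 samples of a group came from different animals or cultures is not stated, so the p-values speak of the differences among these samples, and their spread may be technical.

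EGF family ligands are made as membrane proteins, and proteases release their active part from the cell surface. A ligand joins ErbB receptors into pairs, whose kinase activity feeds the RAS-ERK and PI3-kinase pathways. Amphiregulin (Areg), transforming growth factor alpha (Tgfa) and epigen (Epgn) bind EGFR, and epiregulin (Ereg), betacellulin (Btc) and heparin-binding EGF-like growth factor (Hbegf) bind both EGFR and ErbB4. ErbB2 has no known ligand of its own and acts as a partner, and ErbB3 binds neuregulins and has a weak kinase. In the intestine this signalling drives crypt cell division and repair of the epithelium after injury.

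Depth recovered from low values was 4.18 to 4.80 gigabases per library. Levels are in FPKM, fragments per kilobase of exon scaled to all fragments of the library. Colon epithelial markers were abundant, with the keratin gene Krt8 highest by its mean over the 6 libraries, and the 13 genes of that list summed to 4778 to 5317 FPKM in Ctrl and 4718 to 4952 FPKM in TNF. Of that list 3 genes rose (Krt8, Krt18 and Krt19), 5 fell, among them Car1, Slc26a3 and Lgr5, and 5 did not pass. The 5 endothelial markers, with Pecam1 highest, summed to less than 1 FPKM in each library. Among 13 leukocyte markers none of the 3 tested passed, and the list summed to 17.8 to 34.3 FPKM in Ctrl and 14.3 to 36.0 FPKM in TNF. The macrophage gene Lyz2, the highest of them, had 4.65 FPKM in the Ctrl 1 library, 2.72 FPKM in TNF 3 and 15.6 to 16.0 FPKM in the other 4 libraries. Those 2 libraries therefore stood apart. Results without both of them are given for each ligand, receptor or Lrig3 gene whose call that changed. For further genes of the pathway they are given as counts, and singly for only some of the genes that lost a call.

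**Figure D1:**
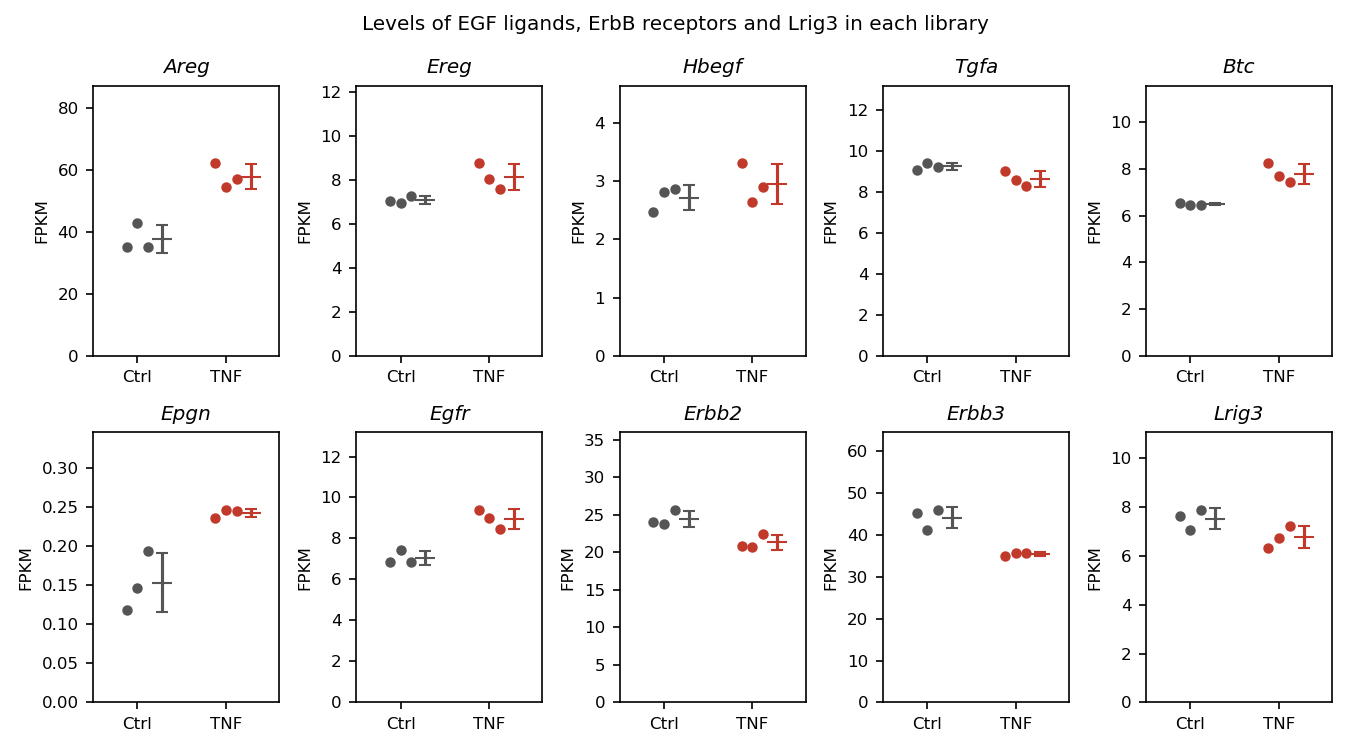
Level in FPKM (vertical axes, each from 0) of the 10 genes in the 3 Ctrl (grey) and 3 TNF (red) libraries, with the mean and SD of each group to the right of its points, which stand in the order of replicates 1 to 3. Areg ran from 35.0 to 42.8 FPKM in Ctrl and from 54.4 to 62.2 FPKM in TNF, Erbb3 was lower in every TNF library, and Hbegf overlapped between the groups.

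RNA of the ligand genes Areg and Btc and of the receptor gene Egfr rose with TNF, and RNA of the receptor genes Erbb2 and Erbb3 fell. A gene was tested if its mean over the 6 libraries was at least 1 FPKM, which 9 of the 10 genes passed and Epgn did not. Of these 9, 3 rose, 2 fell and 4 did not pass (limma on log2(FPKM + 1), adjusted p under 0.05 over all 12350 tested genes). Among all tested genes 24.0% passed, 12.9% as higher and 11.1% as lower. The median log2 change of the 9 genes was 0.09, and that of all tested genes was -0.001. The changes were modest, from -0.31 to 0.61 on the log2 scale. Values of the 3 TNF libraries lay on one side of the 3 Ctrl libraries for 7 of the 9 genes, as they did for 41.4% of all tested genes. In bulk RNA such as this, fewer cells of a type and less RNA per cell cannot be told apart.

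**Figure D2:**
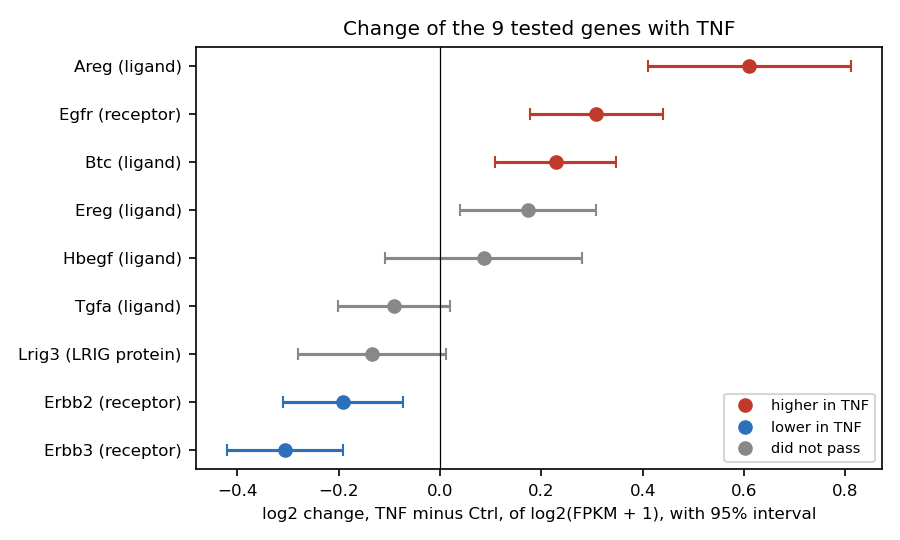
Log2 change, TNF minus Ctrl, of log2(FPKM + 1) (horizontal axis) for the 9 tested genes with the 95% interval of the limma fit. Areg, Egfr and Btc (red) were higher and Erbb2 and Erbb3 (blue) lower in TNF, and 4 genes (grey) did not pass.

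Promoter windows are shown for the 4 genes that passed and had an entry in the RefSeq table, because members that moved in opposite directions can be read side by side. Each is the 250 bases before the RefSeq start site, from RefSeq on build GRCm38.p6, which matched 7 of the 10 genes, and is written 5′ to 3′ on the strand of the gene. Capitals mark matches, on either strand, to an NF-κB-like motif (GGG and CC parted by any 5 bases), an AP-1 motif (TGANTCA) or a cyclic AMP response element (TGACGTCA), which did not overlap each other here.
Areg (chr5:91139349-91139598, plus strand): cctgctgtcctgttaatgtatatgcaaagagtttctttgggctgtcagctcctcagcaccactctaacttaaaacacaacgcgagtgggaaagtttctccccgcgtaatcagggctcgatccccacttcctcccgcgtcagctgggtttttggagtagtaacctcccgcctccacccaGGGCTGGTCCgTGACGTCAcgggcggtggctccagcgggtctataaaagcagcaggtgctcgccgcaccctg
Btc (chr5:91402995-91403244, minus strand): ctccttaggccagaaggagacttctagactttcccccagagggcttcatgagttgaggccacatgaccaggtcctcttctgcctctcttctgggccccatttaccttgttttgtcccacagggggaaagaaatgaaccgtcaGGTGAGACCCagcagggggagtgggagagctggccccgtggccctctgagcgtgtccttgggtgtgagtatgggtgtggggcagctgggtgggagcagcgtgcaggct
Egfr (chr11:16751953-16752202, plus strand): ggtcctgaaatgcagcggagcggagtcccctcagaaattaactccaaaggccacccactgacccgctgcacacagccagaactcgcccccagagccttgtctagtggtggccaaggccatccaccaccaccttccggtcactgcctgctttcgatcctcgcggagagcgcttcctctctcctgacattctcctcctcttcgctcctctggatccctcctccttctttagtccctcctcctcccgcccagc
Erbb2 (chr11:98412234-98412483, plus strand): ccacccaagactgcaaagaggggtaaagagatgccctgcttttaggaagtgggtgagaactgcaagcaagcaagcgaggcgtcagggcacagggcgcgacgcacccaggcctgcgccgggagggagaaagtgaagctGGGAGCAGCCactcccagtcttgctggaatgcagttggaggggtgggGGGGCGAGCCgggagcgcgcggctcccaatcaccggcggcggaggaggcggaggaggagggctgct

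The Areg window held the letters of a cyclic AMP response element, beginning 61 bases before the start site, which 1.55% of the 32851 RefSeq windows of this length hold. Next to it, beginning 72 bases before the start, lay a match to the NF-κB-like motif. That motif is loose, and 45.8% of all windows hold it. Btc had 1 match to it and Erbb2 had 2, while Egfr had none, and none of the 4 windows held the AP-1 letters, which 6.75% of all windows hold. The same loose motif thus stood before genes that rose and before one that fell, and a match is not evidence of binding.

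Areg was the highest of the ligands and rose with TNF. It was at 35.0, 42.8 and 35.1 FPKM in Ctrl 1 to 3 and at 62.2, 54.4 and 56.9 FPKM in TNF 1 to 3. Every TNF library was above every Ctrl library, and Ctrl 2 was the highest of its group. The ratio of mean FPKM was 1.54, and the log2 change was 0.61 (SE 0.09, limma adjusted p = 0.00192). Amphiregulin RNA also comes from leukocytes and stromal cells in other settings. Beside this rise, the T cell genes Cd3d, Cd3e and Cd2 and the pan-leukocyte gene Ptprc were higher in every TNF library, as were 21.0% of all tested genes. They were under 1 FPKM, at most 0.910 FPKM for Cd2 in TNF 1, so that they were not tested. Reads per library were about 0 to 24 for Cd3d, 0 to 44 for Cd2 and 79 to 220 for Ptprc. The other leukocyte markers overlapped between the groups. Of those tested, Lyz2 and C1qa had a lower mean in TNF and Cd68 a higher one. Cd3d was listed at 0 in Ctrl 1 and Ctrl 2. The part of such cells in the Areg level was not tested.

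Btc, whose product is a broad ligand of EGFR and ErbB4, rose by less. Its values were 6.55, 6.45 and 6.46 FPKM in Ctrl 1 to 3 and 8.24, 7.67 and 7.42 FPKM in TNF 1 to 3. The Ctrl libraries lay close together, all below the TNF libraries. The log2 change was 0.23 (SE 0.05, limma adjusted p = 0.0159), a ratio of means of 1.20. Leaving out TNF 1 lost the call (adjusted p = 0.0506), as did leaving out Ctrl 1 and TNF 3 together (adjusted p = 0.0689), and over all 15 alternatives the adjusted p ran from 0.0139 to 0.0689.

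Ereg, the gene of epiregulin, was at 7.05, 6.96 and 7.30 FPKM in Ctrl 1 to 3 and 8.77, 8.07 and 7.61 FPKM in TNF 1 to 3. The groups did not overlap, but the change did not pass (log2 change 0.17, 95% interval 0.04 to 0.31, limma adjusted p = 0.0667). Of its exons, 141 bases overlap those of the antisense gene Gm19610 on the opposite strand, which had 1.33 ± 0.330 FPKM in Ctrl and 1.97 ± 0.240 FPKM in TNF (all such pairs are means with the SD of n = 3 libraries). Since no source used here states strandedness, reads from that stretch cannot be told apart.

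The other ligands moved little or were scarce. Tgfa was at 9.08, 9.39 and 9.23 FPKM in Ctrl 1 to 3 and 9.01, 8.57 and 8.27 FPKM in TNF 1 to 3. Its TNF values lay just below the Ctrl values, and the change did not pass (log2 change -0.09, 95% interval -0.20 to 0.02, limma adjusted p = 0.219). Hbegf was at 2.48, 2.82 and 2.86 FPKM in Ctrl 1 to 3 and 3.31, 2.64 and 2.91 FPKM in TNF 1 to 3, with overlapping groups (log2 change 0.09, 95% interval -0.11 to 0.28, limma adjusted p = 0.508). These intervals allow changes of the size seen for Btc in Hbegf but not in Tgfa.

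Epgn stood near the limit of detection. It was at 0.119, 0.147 and 0.193 FPKM in Ctrl 1 to 3 and 0.236, 0.246 and 0.244 FPKM in TNF 1 to 3, about 7 to 14 reads per library. All TNF libraries were above all Ctrl libraries, yet when genes of any level were tested its change did not pass (limma adjusted p = 0.124).

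In Ctrl the ligands ranked Areg, Tgfa, Ereg, Btc, Hbegf and Epgn by mean FPKM, and no neighbours in this order had overlapping values. In TNF the order was the same, but Tgfa overlapped Ereg and Ereg overlapped Btc. Summed over the 6 ligands, the level was 60.3, 68.6 and 61.1 FPKM in Ctrl 1 to 3 and 91.7, 81.5 and 83.4 FPKM in TNF 1 to 3. Areg made up 58.1%, 62.4% and 57.4% of that sum in Ctrl and 67.8%, 66.7% and 68.3% in TNF. Without Areg the other 5 ligands summed to 25.7 ± 0.390 FPKM in Ctrl and 27.7 ± 1.63 FPKM in TNF, so most of the difference in the sum lay in Areg.

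**Figure D3:**
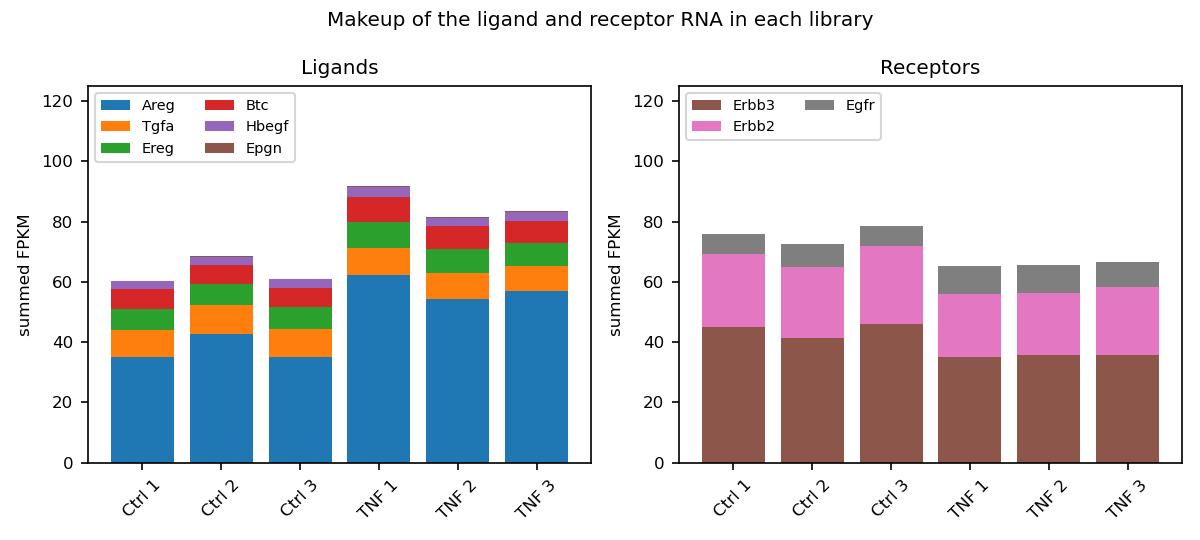
Summed FPKM (vertical axes, from 0) of the 6 ligand genes and of the 3 receptor genes in each of the 6 libraries, with 1 colour per gene. The ligand sum was higher in the TNF libraries, mostly through Areg, and the receptor sum was lower, with a larger share of Egfr.

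Areg, Ereg, Epgn and Btc lie together on chromosome 5 (91027464 to 91402994, GRCm38, GENCODE M21), within 375.5 kilobases. Areg spans 91139599 to 91148432 on the plus strand and Btc 91357261 to 91402994 on the minus strand. All 4 genes had higher values in each TNF library than in any Ctrl library, as did 21.0% of all tested genes. Of these 4, Areg and Btc passed, Ereg did not and Epgn was not tested. Tgfa (chromosome 6, 86195223 to 86275719) and Hbegf (chromosome 18, 36504927 to 36515805), which lie elsewhere, did not pass. Neither grouping was compared by a test.

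Of the receptors, Egfr rose. It was at 6.84, 7.43 and 6.85 FPKM in Ctrl 1 to 3 and 9.41, 9.02 and 8.45 FPKM in TNF 1 to 3. Each TNF library exceeded each Ctrl library. The gene (chromosome 11, 16752203 to 16918158) differed by 0.31 on the log2 scale (SE 0.06, limma adjusted p = 0.00651), a ratio of mean FPKM of 1.27. The call held under each of the 15 alternatives run (adjusted p 0.00496 to 0.0406).

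Erbb3, the neuregulin receptor gene and the most abundant of the receptors, fell. Its level was 45.1, 41.3 and 46.1 FPKM in Ctrl 1 to 3 and 35.0, 35.8 and 35.8 FPKM in TNF 1 to 3. The TNF libraries were nearly equal and all below the Ctrl libraries. For this gene (chromosome 10, 128567523 to 128589652) the log2 change was -0.31 (SE 0.05, limma adjusted p = 0.00364), and mean FPKM was 1.24 times higher in Ctrl. The call was lost in 1 of the 15 alternatives, without Ctrl 1 and TNF 3 together (adjusted p = 0.0561).

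Erbb2 fell by less and with less certainty. Its values were 24.0, 23.8 and 25.7 FPKM in Ctrl 1 to 3 and 20.8, 20.7 and 22.5 FPKM in TNF 1 to 3, again without overlap. The gene (chromosome 11, 98412470 to 98437716) differed by -0.19 on the log2 scale (SE 0.05, limma adjusted p = 0.0310). The call was lost in 8 of the 15 alternatives, among them leaving out Ctrl 1, Ctrl 3, TNF 1 or TNF 2 (adjusted p = 0.0682, 0.0835, 0.0963 and 0.103) and leaving out Ctrl 1 and TNF 3 together (0.0702), while the log2 change stayed between -0.24 and -0.16. Beside the falls of Erbb2 and Erbb3, the absorptive colonocyte genes Slc26a3 and Car1 also fell, with log2 changes of -0.90 and -0.82. Other epithelial genes did not share 1 direction. Of the same marker list, Lgr5 fell (-0.40), Krt8, Krt18 and Krt19 rose, and Vil1 and Cdx1 did not pass. Outside that list, the transporter gene Slc5a8, chosen after its values were seen, rose (log2 change 1.30). The part of a changed mix of epithelial cells in the receptor levels was not tested.

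In both groups the receptors ranked Erbb3, Erbb2 and Egfr, with no overlap between neighbours. Egfr made up 9.0%, 10.2% and 8.71% of the summed receptor FPKM in Ctrl 1 to 3 and 14.4%, 13.8% and 12.7% in TNF 1 to 3. Its share was higher in each TNF library, that of Erbb3 was lower (58.3% ± 1.25 and 54.0% ± 0.593), and that of Erbb2 was 32.4% ± 0.665 in Ctrl and 32.4% ± 1.16 in TNF. The ratio of Erbb3 to Egfr was 6.29 ± 0.640 in Ctrl and 3.97 ± 0.256 in TNF.

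Lrig3 did not pass. The gene (chromosome 10, 125966168 to 126015359) was at 7.61, 7.03 and 7.89 FPKM in Ctrl 1 to 3 and 6.32, 6.73 and 7.21 FPKM in TNF 1 to 3. The groups overlapped, with TNF 3 above Ctrl 2 (log2 change -0.13, 95% interval -0.28 to 0.01, limma adjusted p = 0.169). Its relative Lrig1, chosen after its values were seen, restrains EGF receptors and marks crypt stem cells. Lrig1 had 46.9 ± 3.99 FPKM in Ctrl and 47.4 ± 1.17 FPKM with TNF (log2 change 0.02, limma adjusted p = 0.873).

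The remaining ligands and the fourth receptor were scarce, and none of these 6 genes was tested. Egf had 0.788 ± 0.124 FPKM in Ctrl and 0.491 ± 0.0217 FPKM with TNF, and the neuregulin gene Nrg4 at 0.460 ± 0.0967 and 0.339 ± 0.0277 FPKM. The values of both were lower in each TNF library than in any Ctrl library, as were those of 20.4% of all tested genes. Erbb4, the other neuregulin receptor gene, was at 0.0396 ± 0.0286 FPKM in Ctrl and 0.0847 ± 0.00519 FPKM with TNF, about 4 to 34 reads per library. It was higher in each TNF library, as were 21.0% of all tested genes. Nrg1, Nrg2 and Nrg3 were at most 0.0496 FPKM. Nrg2 was listed at 0 in 5 libraries.

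Further genes of the pathway were counted in 4 lists. With the 6 scarce genes they came to 83 genes, of which 71 were tested, 19 rose, 5 fell and 47 did not pass, where 12.9% of all tested genes rose and 11.1% fell. The median log2 change of the 71 genes was 0.08. Of the 24 calls, 11 held whichever single library was left out, namely Rhbdf2, Rhbdl2, Rhbdf1, Ier3, Junb, Plaur, Phlda1, Fosl1, Dusp4, Pik3r2 and Ccnd1, and 13 were lost without at least 1 library. So 9 genes rose without Ctrl 1, 11 without TNF 1 and 11 without TNF 2. The number that fell was 2 without Ctrl 1, Ctrl 3 or TNF 1 and 3 without TNF 2 or TNF 3, and without Ctrl 1 and TNF 3 together 10 rose and 1 fell.

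Among genes for the release of ligands from the membrane, rhomboid family genes rose. In this list of 8 tested genes, 4 were higher, 1 was lower and 3 did not pass, with a median log2 change of 0.27; over all tested genes 12.9% were higher and 24.0% passed in either direction. Rhbdf2 encodes iRhom2, a partner needed for maturation of the sheddase ADAM17. It was at 4.18, 5.24 and 4.73 FPKM in Ctrl 1 to 3 and 9.93, 10.8 and 10.9 FPKM in TNF 1 to 3 (log2 change 1.02, SE 0.08, limma adjusted p = 8.64e-05). The groups were far apart, with a ratio of means of 2.23. Rhbdl2, a rhomboid protease gene, rose from 5.02 ± 0.442 to 8.34 ± 0.245 FPKM, Rhbdf1 (iRhom1) from 8.24 ± 0.331 to 10.9 ± 0.820 FPKM and the protease gene Adam8 from 1.30 ± 0.118 to 2.32 ± 0.524 FPKM. The call for Adam8 was lost without Ctrl 1, Ctrl 3 or TNF 2 (limma adjusted p up to 0.0542). Adam9 fell from 32.2 ± 0.472 to 29.5 ± 0.0909 FPKM, a call lost when any of the 6 libraries was left out (limma adjusted p 0.0576 to 0.136). The main sheddase genes Adam17 and Adam10, chosen after their values were seen, did not pass, with log2 changes of 0.09 (95% interval -0.03 to 0.20) and 0.04 (95% interval -0.05 to 0.12). Adam17 shares 311 exon bases with Iah1 on the opposite strand.

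Genes that restrain the receptors numbered 14, of which 4 rose, none fell and 10 missed the threshold, with a median log2 change of 0.09. That share of calls in either direction is near the 24.0% of all tested genes. By direction, 12.9% of all tested genes rose and 11.1% fell. The rises were in Cblc, of the Cbl family of ubiquitin ligases (13.8 ± 1.29 to 17.3 ± 1.37 FPKM), and in the tyrosine phosphatase genes Ptpn2 (12.3 ± 0.948 to 14.8 ± 0.856 FPKM), Ptpn12 (15.8 ± 0.717 to 18.2 ± 0.792 FPKM) and Ptprj (16.3 ± 1.33 to 19.3 ± 0.868 FPKM). Each of these 4 calls was lost without Ctrl 1 and without TNF 1, among others. Errfi1, an inducible inhibitor of the EGFR kinase chosen here after its values were seen, had 20.4 ± 1.13 FPKM in Ctrl, 23.2 ± 1.70 FPKM with TNF, and missed the threshold (limma adjusted p = 0.0893).

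The relay from receptor to kinase had few calls, as tested genes in general did (24.0% called). Of 28 tested adaptor, RAS, RAF, MAP kinase and PI3-kinase genes, 3 rose (Akt1, Ptpn11 and Src), 2 fell (Pik3r2 and Gab1) and 23 did not pass, with a median log2 change of 0.01. Pik3r2, a regulatory subunit gene of PI3-kinase, fell from 13.3 ± 0.240 to 10.1 ± 0.993 FPKM, and Gab1, the gene of a docking protein, from 6.92 ± 0.491 to 5.84 ± 0.0317 FPKM. The kinase gene Akt1 rose from 39.4 ± 1.22 to 44.7 ± 1.93 FPKM, and Ptpn11, whose phosphatase SHP2 carries the signal to RAS, from 17.5 ± 0.199 to 19.4 ± 0.154 FPKM. Of these 5 calls, only that for Pik3r2 held whichever library was left out (limma adjusted p 0.00237 to 0.0268).

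Among 21 tested genes that respond to ERK, 8 rose, 2 fell and 11 did not pass, beside 12.9% and 11.1% of all tested genes, with a median log2 change of 0.16. The early response gene Ier3, also a known NF-κB target, was at 19.7, 23.4 and 18.6 FPKM in Ctrl 1 to 3 and 53.6, 44.7 and 49.4 FPKM in TNF 1 to 3 (log2 change 1.22, SE 0.09, limma adjusted p = 9.76e-05). All TNF libraries were well above the Ctrl libraries. The AP-1 gene Junb rose from 23.1 ± 2.43 to 38.4 ± 1.65 FPKM, the urokinase receptor gene Plaur from 12.7 ± 0.330 to 18.8 ± 1.70 FPKM and Phlda1 from 49.9 ± 1.37 to 64.7 ± 4.72 FPKM. The falls were in the cyclin gene Ccnd1 and in Spred1, whose product inhibits RAS signalling, with log2 changes of -0.22 and -0.16. The call for Ccnd1 was lost without Ctrl 1 and TNF 3 together (limma adjusted p = 0.0597), and that for Spred1 without any 1 of the libraries other than TNF 3 (adjusted p up to 0.111). The ERK phosphatase gene Dusp6, chosen after its values were seen, rose from 10.7 ± 0.895 to 12.9 ± 0.812 FPKM (limma adjusted p = 0.0377). Its call was lost without Ctrl 1, Ctrl 3, TNF 1 or TNF 3 (limma adjusted p up to 0.118). The same held without Ctrl 1 and TNF 3 together (limma adjusted p = 0.266). Egr1, Fos, Etv4, Etv5, Myc, Spry2 and Spry4, also chosen after their values were seen, were among the genes that did not pass. Their log2 changes were, in that order, 0.11, 0.24, 0.26, -0.06, -0.03, -0.18 and -0.04 (limma adjusted p 0.0911 to 0.862). Exons of Junb overlap those of Prdx2 by 173 bases, and exons of Ccnd1 overlap those of LTO1 by 1100 bases.

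**Figure D4:**
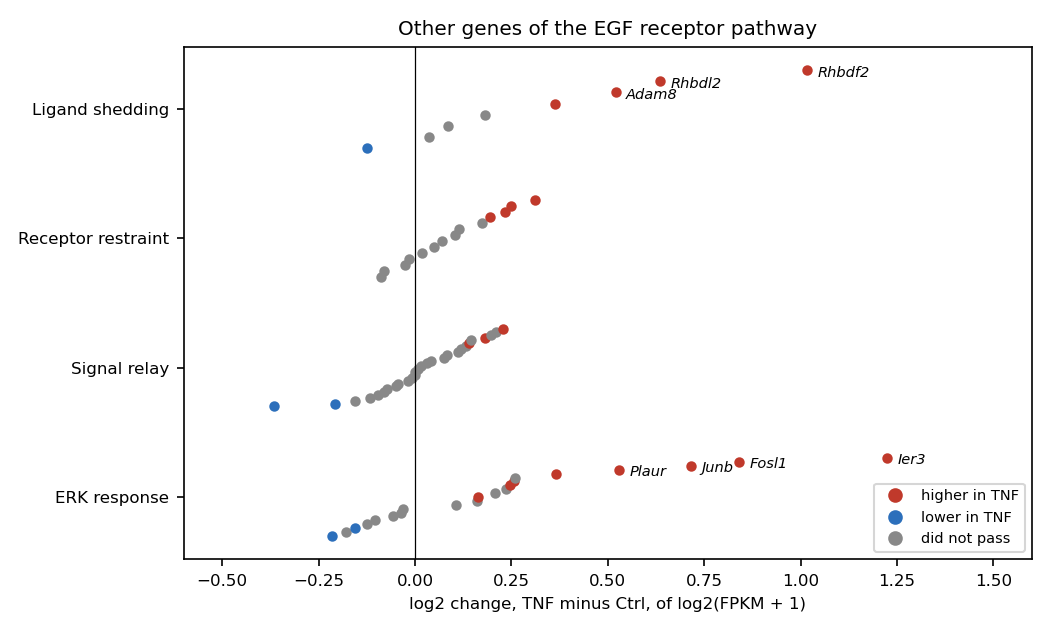
Log2 change, TNF minus Ctrl, of log2(FPKM + 1) (horizontal axis) for the tested genes of 4 lists of the EGF receptor pathway, 1 point per gene, with names on called genes beyond 0.5. Rhbdf2 (1.02) and Ier3 (1.22) lie farthest to the right, and most genes of signal relay lie near 0 in grey.

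Some markers of stromal and glial cells moved with TNF as well. The 9 fibroblast markers, with Vim highest and none at 0 in all libraries, summed to 11.2 to 21.7 FPKM in Ctrl and 8.39 to 10.9 FPKM in TNF. Of 5 tested, Col1a1 and Col3a1 fell, and Vim, Acta2 and Pdgfrb did not pass. Of all tested genes 11.1% fell. Ctrl 1, which stood apart above, was the highest library for Col1a1 (4.81 FPKM, with 2.52 and 1.76 FPKM in Ctrl 2 and 3). The same held for Acta2 (3.94 FPKM, with 1.15 and 0.334 FPKM). Of the glial markers, S100b rose from 1.10 ± 0.336 to 4.02 ± 0.351 FPKM (log2 change 1.27, limma adjusted p = 0.000329), a larger change than that of any of the 9 tested ligand, receptor and Lrig3 genes. Sox10, a transcription factor gene of glia, was untested at 0.0693 ± 0.0450 FPKM in Ctrl and 0.295 ± 0.0455 FPKM with TNF. It was higher in each TNF library, as were 21.0% of all tested genes. The part of stromal and glial cells in the ligand and receptor results was not tested.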

How the data were processed

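RNA sequencing libraries of 3 Ctrl and 3 TNF colon organoid samples were analysed from 1 deposited table, with groups from the sample titles. Per the submitters' processing notes, cutadapt (version 1.9) and FastQC were used with build GRCm38; the aligner, the counting program, its handling of shared reads and the annotation are named by no source used here. Values deposited by the authors were taken as FPKM, since value times exonic length summed to between 9.64e+08 and 9.69e+08 in each library and FPKM must give 1000000000. Low values of single-exon genes came in steps of bases (73.6% to 82.0% within 0.1 of a whole number, where 20% would be so by chance), so whole reads were not recovered and no count test was run; 1 read was taken as 149 bases.

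Values were analysed as log2(FPKM + 1), which understates changes of low genes. Genes averaging 1 FPKM or more over the 6 libraries were compared by limma (version 3.58.1, R 4.3.3; moderated test with a mean-dependent prior, group as the only term, two-sided, Benjamini-Hochberg over 12350 genes, threshold 0.05). The procedure was tested on simulated data, where it recovered 64% of 1.4-fold and 92% of 2-fold changes, with 1 false call among 168. Smaller changes, such as those of most of the 10 genes, were not simulated. Alternatives were other pseudocounts, filters, scalings and prior, a replicate block, and leaving out each library. The 10 genes and the lists were chosen with earlier results of these data known. All 10 genes are named, with the scarce family genes, up to 4 genes per list with the smallest p, and the highest and 0-level markers. Further list genes, other than markers, are stated as chosen after their values were seen or complete a small count. Some further marker genes are named as well. Genes were placed with GENCODE M21 (GRCm38). Shared reads of the ErbB paralogs were not examined. Results of some marker genes are not reported here.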

Additional observations from a re-analysis of the deposited data

How the results depend on the processing

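No result of the 10 genes reversed under the 15 alternatives; Areg and Egfr kept their calls in each, and Ereg, Hbegf, Tgfa and Lrig3 passed in none (Hbegf was not tested with a filter at 5 FPKM). Of the set, 1 gene instead of 2 fell with no filter on low values, with libraries rescaled to equal sums and with a prior without trend, and 0 fell by limma without Ctrl 1 and TNF 3 together, an alternative chosen after seeing the data, where 2 fell at an unadjusted p under 0.05. Leaving out 1 library at a time gave 2 to 3 higher and 1 to 2 lower genes of the set. Of the other pathway genes, 10 instead of 19 rose with no filter, 3 instead of 5 fell after rescaling or without trend, 2 fell with the replicate block, and 10 rose and 1 fell without Ctrl 1 and TNF 3 together; leaving out 1 library gave 9 to 17 higher and 2 to 4 lower. Over all tested genes 1595 rose and 1374 fell, with 821 and 596 without Ctrl 1 and TNF 3 together and 1149 to 1430 and 913 (without Ctrl 1) to 1177 without 1 library. Fewer samples enter these fits; the cause of the other shifts was not tested. The log2 change of Epgn was 0.45 with a pseudocount of 0.1, 0.02 with 5 and 0.25 after rescaling, against 0.11. Replicate numbers did not pair the samples (correlations of deviations -0.004, -0.10 and 0.005), and the replicate block left 3 higher and 2 lower genes of the set. Depth limits Epgn, at about 7 to 14 reads, and the other family genes under 1 FPKM.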

Other observations

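Between Areg and Btc on chromosome 5, the long noncoding RNA gene Gm19619 was at 0.216, 0.246 and 0.244 FPKM in Ctrl 1 to 3 and 0.686, 0.617 and 0.628 FPKM in TNF 1 to 3. The ratio of means was 2.73, and the gene was chosen after its values were seen. It was under the filter of 1 FPKM and was not tested.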
